A study of Mus musculus with 51 samples.

Results

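The 9 genes described here act in TGF-beta signalling: the receptors Tgfbr1 and Tgfbr2, the ligand Tgfb1, the signal transducer Smad3, and the feedback and target genes Smad7, Ski, Skil, Pmepa1 and Ldlrad4. They were chosen by gene symbol, and all 9 were present in both deposited tables, which together hold 13831 distinct genes. The samples were CD8+ T cells sorted by flow cytometry from mammary tumors and from spleens; the tumors were of AT3-OVA, a mouse line that the labels use as a model of triple-negative breast cancer and whose name carries the ovalbumin model antigen. In the untreated table, 43 libraries fell into 15 groups. Tumor cells were taken at weeks 1, 2, 4 and 6 and split by 2 surface proteins, CD103 and CD69. CD103+CD69+ cells are called DP here and had 3, 4, 3 and 3 libraries at these weeks. CD103-CD69+ cells (SP) had 3, 3, 2 and 3 libraries, and CD103-CD69- cells (DN) had 2, 3, 3 and 2. Spleens labelled as controls gave 3 libraries each of EM, CM and naive cells, with EM and CM read here as effector memory and central memory. In the second table, 8 libraries came from tumors at day 40 after immune checkpoint blockade (ICB): the DP and SP groups held 3 each and the DN group 2. The antibody or antibodies used for ICB are not given in the sources used here. All other samples carry the treatment label none, and the spleen labels also name the AT3-OVA line. Strain, age, and whether a replicate was 1 animal or a pool are likewise not given, so the p-values measure the spread between these libraries, which may be technical in part.

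TGF-beta is a secreted cytokine that is made in a latent form and acts through a receptor of 2 kinase chains, a type II chain (Tgfbr2) that binds it and a type I chain (Tgfbr1) that phosphorylates Smad2 and Smad3. These join Smad4, enter the nucleus and switch genes on or off. Several of the genes they raise damp the pathway in turn: Smad7 blocks and degrades the type I receptor, Ski and SnoN (encoded by Skil) repress Smad complexes, and Pmepa1 and Ldlrad4 are membrane proteins that keep Smad2 and Smad3 from the receptor. In CD8+ T cells TGF-beta is known to raise CD103, encoded by Itgae, and to favour tissue-resident memory, of which CD103 and CD69 are the usual surface marks.

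Tgfb1 and Smad3 were the 2 members that passed the main test over all weeks for both DP and SP against DN cells in the untreated tumors. The 250 bases before their start sites are shown for that reason. Neither gene passed over all weeks once the run of library codes, described below, was a term in the fit. The sequences come from RefSeq (GRCm38.p6), in the direction of transcription. Capitals mark AGAC or its reverse complement GTCT, the short sequence that Smad3 and Smad4 are known to bind. The Tgfb1 promoter lies at chr7:25686752-25687001 on the plus strand and the Smad3 promoter at chr9:63757995-63758244 on the minus strand.
Tgfb1: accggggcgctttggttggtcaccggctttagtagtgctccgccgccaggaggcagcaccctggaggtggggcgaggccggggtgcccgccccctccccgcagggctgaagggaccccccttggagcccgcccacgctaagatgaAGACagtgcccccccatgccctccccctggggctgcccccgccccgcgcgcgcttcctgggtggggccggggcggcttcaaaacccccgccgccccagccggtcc
Smad3: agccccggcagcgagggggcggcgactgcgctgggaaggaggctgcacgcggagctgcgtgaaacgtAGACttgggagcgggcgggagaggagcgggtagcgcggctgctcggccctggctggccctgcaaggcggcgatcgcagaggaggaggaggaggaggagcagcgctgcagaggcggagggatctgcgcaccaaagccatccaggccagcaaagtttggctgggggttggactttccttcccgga
Each holds 1 such match, and 82.9% of the 32851 RefSeq promoters of the same length hold at least 1, so a match here is only a description of the letters.

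In the GENCODE M21 annotation of GRCm38, Tgfbr1 lies at chr4:47353222-47414931, Tgfbr2 at chr9:116084293-116175360, Tgfb1 at chr7:25687002-25705077, Smad3 at chr9:63646767-63757994, Ski at chr4:155154075-155222592, Skil at chr3:31095058-31122577 and Pmepa1 at chr2:173224458-173276533, with Smad7 and Ldlrad4 on chromosome 18. The assay counted reads near the 3' ends of these genes.

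The deposited values were already normalised and were read as log2, and a level in them is no measure of abundance, because the means of single genes in the untreated table lay anywhere between -28.0 and 39.4. All results below are therefore differences of 1 gene between libraries, as log2 with the standard error, tested with limma over all 10560 genes of the untreated table or 13458 of the ICB table and called at a Benjamini-Hochberg adjusted p below 0.05. Library medians spanned 8.21 to 8.39 and 8.34 to 8.41, and read depth per library is unknown. The sort left its mark in the RNA: Itgae was 2.82 ± 0.29 higher in DP than DN cells and 1.11 ± 0.28 higher in DP than SP cells, and Cd69 was 0.78 ± 0.19 higher in DP than DN cells. The week 1 libraries stood apart. At that week the mean of 4 epithelial markers, centred over the table, was 2.37 to 3.81 in DP, 2.21 to 2.94 in SP and -2.36 to -1.29 in DN libraries, and the mean of 13 T-cell identity genes was -0.83 to -0.76 in DP libraries, against -0.13 to -0.01 in SP and -0.17 to 0.06 in DN libraries. At weeks 2, 4 and 6 the epithelial mean was -1.50 to 0.46 in DP, -0.55 to 0.91 in SP and -1.17 to 2.08 in DN libraries. Library codes also split the sort: 11 DP, 10 SP and all spleen libraries have codes from 5 to 42, whereas 7 DN libraries share codes 46 to 61 with 2 DP and 1 SP library, and 3 DN libraries have codes 72 to 75. Members' pooled differences from DN cells are thus given again with the code run as a term and over the later weeks alone, and list counts with both. In bulk RNA, fewer cells of a type and less RNA per cell cannot be told apart, and no level tells whether a marker is at 0.

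Among spleen cells the feedback genes were lower in EM than in naive cells, and Smad3 was higher. In this comparison 7 of the 9 members changed, 6 of them lower, where 24.6% of all genes changed and 12% were lower. The largest difference was in Pmepa1, with values of 2.16, 2.22 and 2.16 in EM libraries, against 5.21, 4.29 and 5.21 in naive libraries. The groups did not overlap, and the difference was -2.72 ± 0.26 (adjusted p = 9.58e-08). Ldlrad4 had values of -0.14, 1.03 and -0.52 in EM libraries, against 2.83, 1.93 and 2.89 in naive libraries, a difference of -2.43 ± 0.41 (adjusted p = 0.000163). Its EM library 2 and its naive library 2 lay nearest to each other, and the groups still did not overlap. Skil was 3.37, 3.47 and 3.34 in EM libraries, against 4.87, 4.58 and 4.86 in naive libraries (-1.38 ± 0.11, adjusted p = 8.51e-09). Smad7 was 2.79, 2.90 and 2.79 in EM libraries, against 4.17, 3.73 and 4.04 in naive libraries (-1.15 ± 0.15, adjusted p = 5.48e-06). Ski differed less, by -0.68 ± 0.15 (adjusted p = 0.00218), and so did the receptor Tgfbr2, by -0.47 ± 0.13 (adjusted p = 0.00993, or 0.0879 in a fit of these 2 groups alone). Smad3 went the other way: its values were 5.22, 4.98 and 5.32 in EM libraries, against 3.22, 3.60 and 3.37 in naive libraries, a difference of 1.77 ± 0.20 (adjusted p = 1.2e-06). Tgfbr1 (-0.55, 95% interval -1.16 to 0.07, adjusted p = 0.191) and the ligand Tgfb1 (0.16, 95% interval -0.19 to 0.51) did not pass the test.

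Ldlrad4 needs a caution here, since its 3' end lies under 8444 bases of Fam210a on the opposite strand and the strand used in counting is not given in the sources used here, so reads of the 2 genes cannot be told apart. Fam210a was itself lower in EM than naive cells (-0.57, adjusted p = 0.0083). No other protein-coding gene overlaps a member in the same annotation.

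CM cells shared the naive reference and lay between the other spleen groups for Skil, Pmepa1, Smad7, Ski and Ldlrad4 by mean. Against naive cells 6 members changed, 5 of them lower, where 18.8% of all genes changed and 8.7% were lower. Smad3 was 1.46 ± 0.20 higher in CM than naive cells (adjusted p = 2.99e-05) and Tgfbr2 was lower, at -0.80 ± 0.13 (adjusted p = 0.00015), with 7.71, 7.62 and 7.56 in CM libraries, against 8.41, 8.43 and 8.43 in naive libraries. Smad7 differed by -0.72 ± 0.15 (adjusted p = 0.00152) and Ski by -0.56 ± 0.15 (adjusted p = 0.013, lost without naive library 3 at 0.0607). Skil (-0.34 ± 0.11, adjusted p = 0.0396) and Ldlrad4 (-1.23 ± 0.41, adjusted p = 0.0416) were near the threshold, and each lost its call in 5 of the 6 fits that left out 1 library, with adjusted p up to 0.157 for Skil and 0.152 for Ldlrad4. Pmepa1 differed by -0.62 (adjusted p = 0.102), with 4.71, 4.25 and 3.87 in CM libraries, against 5.21, 4.29 and 5.21 in naive libraries, and the groups overlapped. Between the memory groups, 2 members were lower in EM than CM cells, where 15.4% of all genes changed and 7.19% were lower. These were Pmepa1 (-2.10 ± 0.26, adjusted p = 3.72e-05) and Skil (-1.04 ± 0.11, adjusted p = 6.1e-06), whose CM values were 4.48, 4.44 and 4.37. EM cells thus held the lowest group mean of all 15 untreated groups for Smad7, Ski, Skil, Pmepa1 and Ldlrad4, and the highest for Smad3. Of 9 myeloid markers, 1 was higher and 2 were lower in EM than naive cells, and 2 of 4 epithelial markers were lower. Between EM and CM cells 1 myeloid marker was higher (Itgam, 1.43) and 3 were lower (C1qb, -4.67, C1qc, -2.40, and Apoe, -1.17), and Krt8 (-4.08) and Krt18 (-2.98) were the 2 epithelial markers called lower. Between CM and naive cells 2 epithelial markers were higher and no myeloid marker was called. The part of these markers in the members' differences was not tested.

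In every tumor subset the feedback genes were higher than in spleen EM cells. Against EM, 8 members changed in DP cells (29.7% of all genes), 7 in SP cells (29.4%) and 6 in DN cells (20.6%). The 3 comparisons share the same 3 EM libraries. Of these calls, 7, 6 and 6 were higher in the tumor, where 13.8%, 15.9% and 10.2% of all genes were higher. All 34 tumor libraries lay above all EM libraries for Tgfb1, Smad7, Ski, Skil and Pmepa1, as the plot of values by group shows. How many of all genes do so was not counted. Pmepa1 had a lowest, median and highest value of 4.26, 4.88 and 5.43 over the tumor libraries, against 2.16 to 2.22 in EM libraries. The difference was 2.70 ± 0.20 in DP (adjusted p = 1.19e-08), 2.54 ± 0.21 in SP (adjusted p = 4.56e-08) and 2.82 ± 0.21 in DN cells (adjusted p = 1.96e-08). Skil had 4.56, 4.89 and 5.43 as lowest, median and highest tumor values, against 3.34 to 3.47 in EM libraries. Its difference was 1.53 ± 0.09 in DP (adjusted p = 2.86e-10), 1.54 ± 0.09 in SP (adjusted p = 7.3e-10) and 1.43 ± 0.09 in DN cells (adjusted p = 3.93e-09). These 2 genes, an endosomal membrane protein and a nuclear Smad repressor, were called in all 3 tumor subsets.

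**Figure D1:**
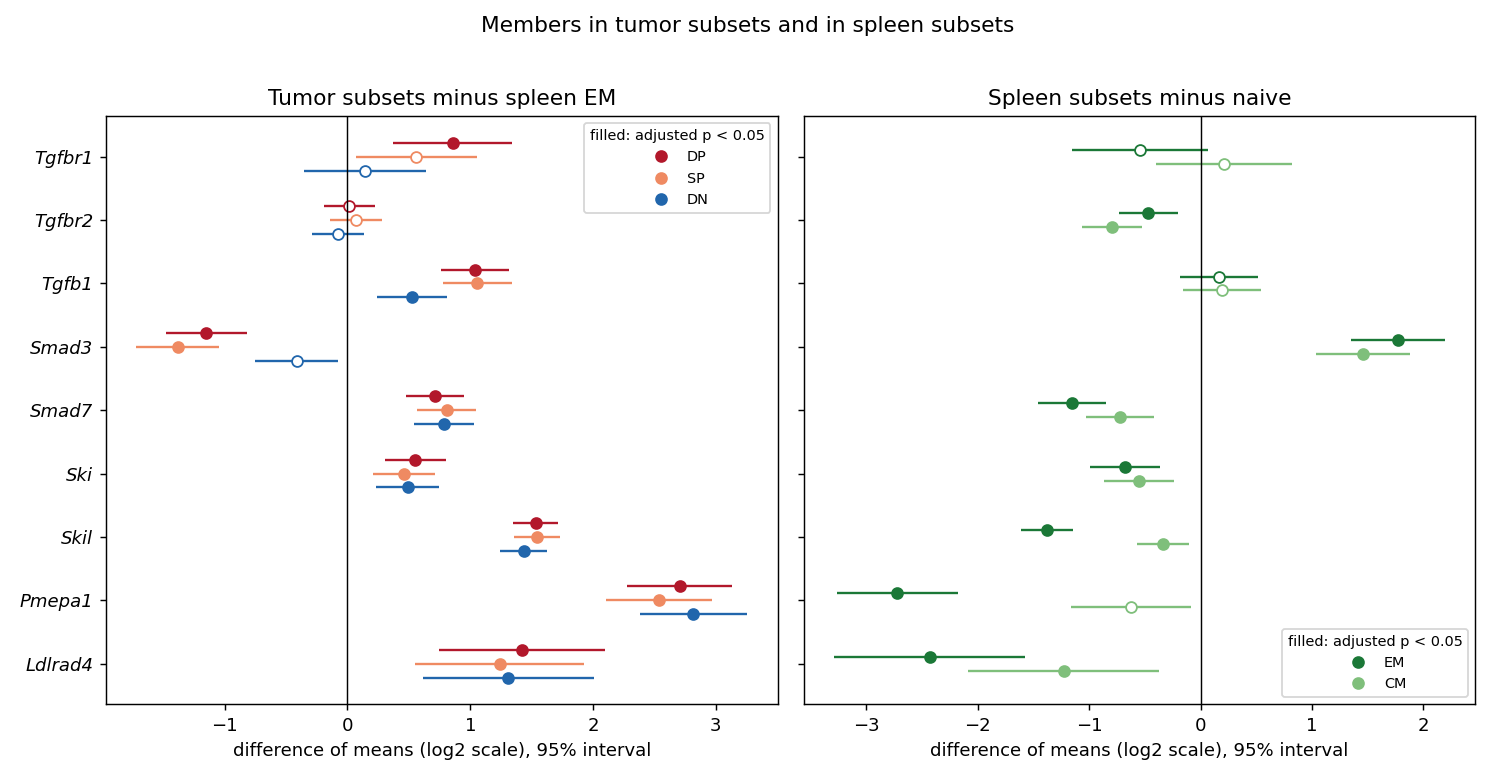
Difference of means on the log2 scale with its 95% interval for the 9 members: left, tumor DP, SP and DN cells minus spleen EM cells; right, spleen EM and CM cells minus naive cells (filled points, adjusted p below 0.05). On the left 7 of 9 members lie right of 0 with filled points in at least 1 subset, up to 2.82 for Pmepa1 in DN cells, and Smad3 lies left of 0; on the right Smad3 lies right of 0, at 1.77 for EM cells.

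Smad7 and Ski were higher than in EM cells as well, by 0.71 ± 0.12 (adjusted p = 9.72e-05) and 0.55 ± 0.12 (adjusted p = 0.00151) in DP cells. In SP cells Smad7 was 0.81 ± 0.12 higher (adjusted p = 3.82e-05) and Ski 0.46 ± 0.12 higher (adjusted p = 0.00702), and in DN cells the values were 0.79 ± 0.12 (adjusted p = 0.00013) and 0.49 ± 0.12 (adjusted p = 0.00784), the second lost without EM library 3 (adjusted p = 0.056). Ldlrad4 was 1.42 ± 0.32, 1.24 ± 0.33 and 1.31 ± 0.34 higher in DP, SP and DN cells (adjusted p = 0.00238, 0.00764 and 0.00881), but only 25 of the 34 tumor libraries lay above all EM libraries, and the SP and DN calls were lost without EM library 1 or EM library 3 (adjusted p up to 0.1 in SP and 0.112 in DN cells). Fitting only the groups compared also ended the call of Ldlrad4 in SP cells (adjusted p = 0.0524) and of Ski in DN cells (adjusted p = 0.0578). Fam210a, on the other strand, did not pass the test in DP cells (0.15, adjusted p = 0.36) or in DN cells (0.24, adjusted p = 0.165).

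The ligand and its transducer separated the subsets. Tgfb1 was 1.04 ± 0.13 higher in DP than EM cells (adjusted p = 7.56e-06), 1.06 ± 0.13 higher in SP cells (adjusted p = 8.93e-06) and 0.52 ± 0.14 higher in DN cells (adjusted p = 0.00974), and the DN call was lost without EM library 1 or 3 (adjusted p up to 0.0783) and in a fit of the compared groups alone (adjusted p = 0.0534). Smad3 was lower than in EM cells, by -1.15 ± 0.16 in DP (adjusted p = 1.89e-05) and by -1.38 ± 0.16 in SP cells (adjusted p = 3.41e-06), and in DN cells the difference of -0.41 ± 0.16 missed the threshold (adjusted p = 0.078). Of the receptors, Tgfbr1 was 0.86 ± 0.23 higher in DP cells (adjusted p = 0.00809), a call lost without EM library 3 (0.72, adjusted p = 0.0767). Tgfbr2 differed by 0.02 in DP cells, with a 95% interval of -0.19 to 0.22. With the code run as a term, all 8 calls in DP and all 7 in SP cells held, and those in DN cells came down to Skil (1.33, adjusted p = 7.48e-05) and Pmepa1 (2.64, adjusted p = 0.000316). All 4 epithelial markers were higher in each tumor subset than in EM cells, where their centred mean was -3.23 to -3.04, as were 4 of 9 myeloid markers in DP, 4 in SP and 3 in DN cells. The myeloid marker Itgam was lower in DP, SP and DN cells, by -1.22, -1.77 and -1.32 (adjusted p = 0.0109, 0.000813 and 0.0123). Lyz2, also of this list, was lower in DN cells (-1.10, adjusted p = 0.0133). The part of other cells in these differences was not tested.

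Against naive cells no feedback gene was called higher in any tumor subset, and Smad7 and Ldlrad4 were called lower in all 3. The naive reference was added after the values had been seen, and it shares the naive libraries with the spleen comparisons above. DP, SP and DN cells had 5, 4 and 5 members called, where 46.7%, 45.3% and 37.8% of all genes were. Tgfb1 was higher in all 3, by 1.2, 1.22 and 0.69 in DP, SP and DN cells (adjusted p = 2.75e-07, 2.73e-07 and 0.000436), and all 34 tumor libraries lay above all naive and all EM libraries. Its highest spleen value was 3.83, in a CM library, and its lowest tumor value was 3.84, so the margin over the spleen as a whole was small. Tgfbr2 was lower in all 3, by -0.45, -0.40 and -0.55 (adjusted p = 0.000921, 0.00329 and 0.000286), with a highest tumor value of 8.21 and a lowest naive value of 8.41. Smad7 was also lower, by -0.44, -0.34 and -0.36 (adjusted p = 0.00384, 0.0212 and 0.0198), and Ldlrad4 by -1.01, -1.19 and -1.12 (adjusted p = 0.0149, 0.00586 and 0.0114). Fam210a, which overlaps Ldlrad4 on the other strand, was lower too, by -0.42, -0.47 and -0.32 (adjusted p = 0.00642, 0.00295 and 0.04). Without naive library 1, Smad7 missed the threshold in all 3 subsets (adjusted p up to 0.162) and Ldlrad4 in DP and DN cells (adjusted p up to 0.0857), and without naive library 3 the same genes did except Smad7 in DP cells (adjusted p up to 0.0965). Ldlrad4 in DP cells also missed it without week 1 (adjusted p = 0.0524). With the code run as a term 2 of the 5 calls in DN cells were left. Pmepa1 differed by -0.02, -0.18 and 0.10 and Skil by 0.16, 0.17 and 0.06, none of them called. Smad3 was higher than in naive cells by 0.62 in DP (adjusted p = 0.00304) and by 1.36 in DN cells (adjusted p = 1.36e-06), and by 0.39 in SP cells (adjusted p = 0.0541).

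**Figure D2:**
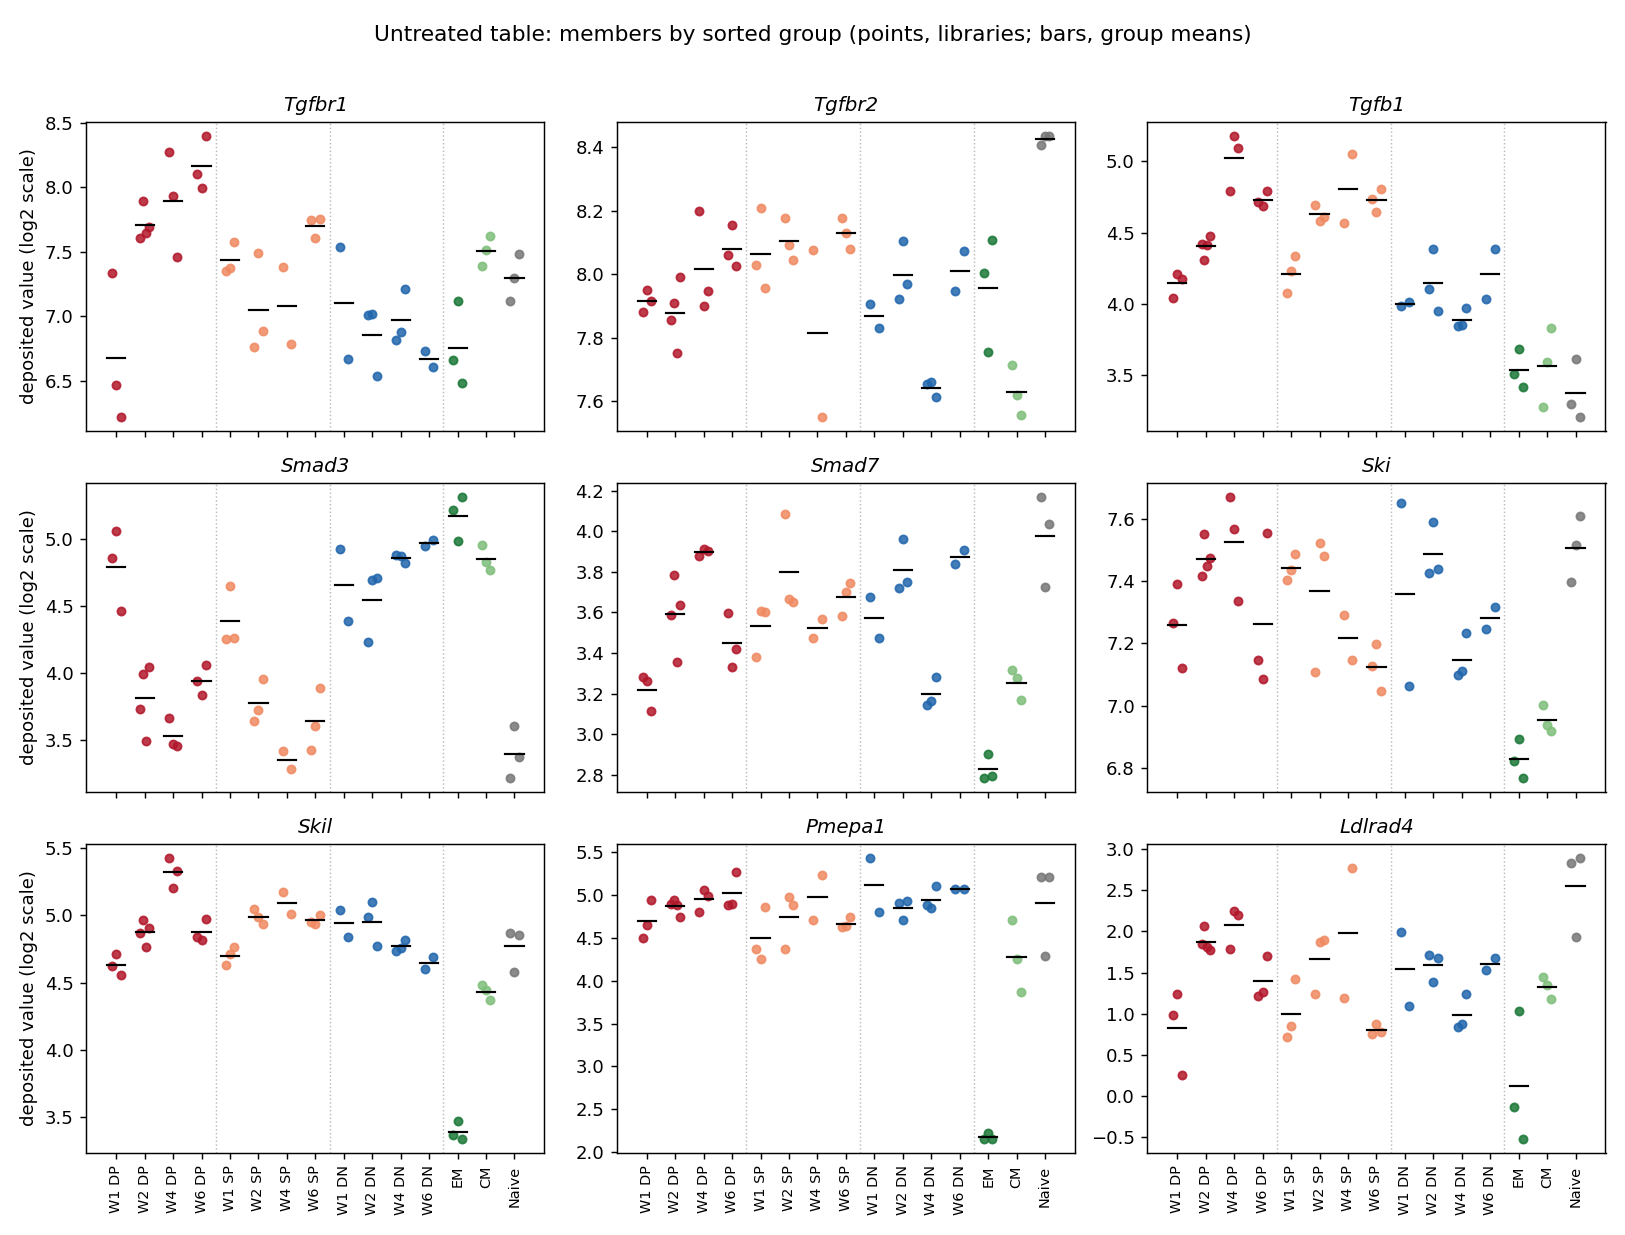
Deposited values on the log2 scale of the 9 members in the 43 untreated libraries, by group: tumor DP, SP and DN at weeks 1, 2, 4 and 6 (W1 to W6), then spleen EM, CM and naive (points, libraries; bars, group means; each panel has its own axis). Pmepa1 and Skil are lowest in EM, at 2.16 to 2.22 and 3.34 to 3.47, and Smad3 in DN cells stays between 4.23 and 4.99 while DP and SP cells at weeks 2, 4 and 6 lie between 3.28 and 4.06.

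Within the tumor, DP and SP cells both differed from DN cells in the ligand Tgfb1 and the transducer Smad3, DP cells also in the receptor Tgfbr1, and no feedback gene was called over all weeks. DP cells had 3 members called against DN cells (19.5% of all genes) and SP cells 2 (19.4%), with the DN libraries shared. Smad3 had a lowest, median and highest value of 3.46, 3.94 and 5.06 in DP libraries and 3.28, 3.73 and 4.65 in SP libraries, against 4.23, 4.85 and 4.99 in DN libraries. The pooled differences were -0.74 ± 0.11 for DP (adjusted p = 5.72e-05) and -0.97 ± 0.11 for SP cells (adjusted p = 6.56e-06). The overlap came from week 1: at weeks 2, 4 and 6 Smad3 reached 4.06 at most in DP and 3.95 in SP libraries, and was never below 4.23 in DN libraries. Without week 1 the differences were -1.03 ± 0.12 (adjusted p = 5.22e-06) and -1.20 ± 0.13 (adjusted p = 2.32e-06).

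Tgfb1 had 4.04, 4.48 and 5.18 as lowest, median and highest values in DP libraries and 4.07, 4.61 and 5.05 in SP libraries, against 3.84, 4.00 and 4.39 in DN libraries. Its difference from DN cells was 0.51 ± 0.09 for DP (adjusted p = 0.00031) and 0.53 ± 0.09 for SP cells (adjusted p = 0.000429). At weeks 2, 4 and 6 its lowest SP value, 4.57, lay above the highest DN value, 4.39, while the lowest DP value, 4.31, did not. Tgfbr1 was 0.71 ± 0.15 higher in DP than DN cells (adjusted p = 0.00252) and 0.42 ± 0.16 higher in SP cells, which missed the threshold (adjusted p = 0.0724). At weeks 2, 4 and 6 it had 7.46, 7.92 and 8.40 in DP libraries and 6.76, 7.43 and 7.75 in SP libraries, against 6.54, 6.85 and 7.21 in DN libraries, so every DP library lay above every DN library. The difference there was 1.09 ± 0.17 (adjusted p = 0.000137). Skil was also called at these weeks, at 0.24 ± 0.07 for DP (adjusted p = 0.0134) and 0.23 ± 0.07 for SP cells (adjusted p = 0.03, lost in 5 of the 16 fits that left out 1 library, up to 0.0874), which made 4 and 3 members, where 23.3% and 17% of all genes were called.

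The code runs bear on these values. With the run as a term 98 genes in all were called between DP and DN cells (0.928%) and 62 between SP and DN cells (0.587%), and no member passed over all weeks in either comparison: Smad3 was -0.51 in DP (adjusted p = 0.245) and -0.73 in SP cells (adjusted p = 0.124), Tgfb1 0.64 and 0.66 (adjusted p = 0.0818 and 0.102) and Tgfbr1 0.94 in DP cells (adjusted p = 0.147). At weeks 2, 4 and 6 the same term left Smad3 at -0.81 in DP (adjusted p = 0.0104) and -0.96 in SP cells (adjusted p = 0.00818), Tgfb1 at 0.73 and 0.74 (adjusted p = 0.00845 and 0.0184) and Tgfbr1 at 1.23 in DP cells (adjusted p = 0.0102), while Skil lost its calls (adjusted p = 0.0884 and 0.162). Within codes 46 to 61 alone, Smad3 was 4.05 and 4.06 in the 2 DP libraries of weeks 2 and 6 and 3.89 in the SP library of week 6, against 4.23 to 4.99 in the 5 DN libraries of these weeks. Tgfbr1 was 7.69 and 8.40 in DP and 7.75 in SP libraries, against 6.54 to 7.01 in DN libraries, and Tgfb1 was 4.48 and 4.79 in DP and 4.8 in SP libraries, against 3.95 to 4.39 in DN libraries. None of the 3 genes overlapped there, but they were chosen by a fit that includes these libraries, so this is only a description. The nearest Tgfb1 values were 4.48 in DP and 4.39 in DN libraries. How many of all genes separate in this way was not counted. Over all weeks 3 of 9 myeloid and 2 of 4 epithelial markers were higher and 7 of 13 T-cell identity genes lower in DP than DN cells. Cd3g of the T-cell list was higher there (0.34, adjusted p = 0.00732). So were Foxp3, Ikzf2 and Il2ra of the CD4 and regulatory T-cell markers (1.82, 1.12 and 0.57), while Cd4 and Ctla4 were not called. In SP against DN cells Cd2, Cd3g, Cd8a, Zap70, Lyz2, Epcam, Krt19, Foxp3, Ikzf2 and Il2ra were called higher and Lat lower. Over weeks 2, 4 and 6, 1 of 9 myeloid markers was higher and 2 of 4 epithelial markers were lower in DP than DN cells, and 4 of 13 T-cell identity genes were higher and 1 lower in SP than DN cells; their part was not tested.

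The remaining feedback genes gave small differences with intervals close to 0. Between DP and DN cells over all weeks, Smad7 differed by -0.07 (95% interval -0.23 to 0.09), Ski by 0.06 (-0.10 to 0.23), Pmepa1 by -0.11 (-0.40 to 0.17) and Ldlrad4 by 0.11 (-0.34 to 0.56). Tgfbr2 differed by 0.09 (-0.05 to 0.23).

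By week, the Smad3 and Tgfb1 differences from DN cells were absent from the calls at week 1 and were called at week 4. At week 6 Smad3 was called again, while Tgfb1 was not called at week 2 or week 6. Tgfb1 means were 4.40 in DP, 4.63 in SP and 4.15 in DN cells at week 2. At week 6 they were 4.73, 4.73 and 4.21. At week 1 Smad3 was 4.86, 5.06 and 4.47 in DP libraries and 4.25, 4.65 and 4.27 in SP libraries, against 4.92 and 4.39 in DN libraries. The 3 subsets overlapped, and the differences from DN cells were 0.14 for DP (22.7% of all genes called at this week, none of them members) and -0.27 for SP cells (7.26%, no members). At week 2 Smad3 was 3.73, 3.99, 3.49 and 4.05 in DP and 3.64, 3.73 and 3.95 in SP libraries, against 4.23, 4.69 and 4.71 in DN libraries. The groups no longer overlapped, and the differences of -0.73 (adjusted p = 0.0636) and -0.77 (adjusted p = 0.0938) missed the threshold at a week when 0.814% and 0.464% of all genes were called.

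At week 4 the DP cells had 6 members called against DN cells (21.9% of all genes) and the SP cells 2 (13.6%). Smad3 was 3.67, 3.47 and 3.46 in DP and 3.42 and 3.28 in SP libraries, against 4.88, 4.88 and 4.83 in DN libraries, differences of -1.33 ± 0.20 (adjusted p = 0.000165) and -1.51 ± 0.23 (adjusted p = 0.000402). Tgfb1 was 4.79, 5.18 and 5.10 in DP and 4.57 and 5.05 in SP libraries, against 3.84, 3.85 and 3.97 in DN libraries, differences of 1.13 ± 0.17 (adjusted p = 0.000142) and 0.92 ± 0.19 (adjusted p = 0.00314). The SP value for Tgfb1 fell to 0.68 without SP library 2 of that week (adjusted p = 0.112). Feedback genes were called at this week only between DP and DN cells, among the comparisons made: Smad7 was 3.88, 3.91 and 3.90 in DP libraries, against 3.14, 3.16 and 3.28 in DN libraries (0.70 ± 0.15, adjusted p = 0.00206). Skil was 5.43, 5.20 and 5.33 in DP libraries, against 4.74, 4.76 and 4.81 in DN libraries (0.55 ± 0.11, adjusted p = 0.00174). Neither gene overlapped between the groups. At the other weeks the mean of Smad7 was lower in DP than DN cells, and no such difference was called. It was 3.22 against 3.57 at week 1 and 3.59 against 3.81 at week 2. At week 6 it was 3.45 against 3.87, and the libraries, at 3.33 to 3.60 and 3.84 to 3.91, did not overlap. At week 4 Smad3, Tgfb1, Smad7 and Skil kept their calls with the code run as a term. Tgfbr1 (0.92, adjusted p = 0.0297) and Tgfbr2 (0.37, adjusted p = 0.0407) lost theirs in 4 and 5 of the 6 fits that left out 1 library, with adjusted p up to 0.130 and 0.176. All 3 stromal markers measured were lower in DP than DN cells at this week, and 4 of 5 markers of CD4 and regulatory T cells were higher; their part was not tested.

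At week 6 Smad3 was 3.94, 3.84 and 4.06 in DP and 3.43, 3.61 and 3.89 in SP libraries, against 4.95 and 4.99 in DN libraries. The differences were -1.03 ± 0.23 (adjusted p = 0.0145; 3.2% of all genes called) and -1.33 ± 0.23 (adjusted p = 0.00217; 3.02%). Tgfbr1 was 8.10, 7.99 and 8.40 in DP and 7.74, 7.61 and 7.75 in SP libraries, against 6.73 and 6.61 in DN libraries. It was called for DP cells (1.49 ± 0.33, adjusted p = 0.0145), and missed the threshold for SP cells (1.03 ± 0.33, adjusted p = 0.101). Both DP calls of week 6 were lost in 3 of the 5 fits that left out 1 library, with adjusted p up to 0.132 for Smad3 and 0.141 for Tgfbr1. Smad3 between DP and DN cells also lost its call with the run term (-0.84, adjusted p = 0.0903).

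DP and SP cells were set apart by no member over all weeks, where 3.48% of all genes were called by limma. At an unadjusted p below 0.05 there was 1 member, Smad3, at 0.23 (95% interval 0.02 to 0.45, adjusted p = 0.231). Fits with the ordinary degrees of freedom or without limma's trend and robust options also called 0 members. None of these fits paired DP with SP libraries. For Tgfb1 the interval was -0.20 to 0.16 around -0.02, for Skil -0.13 to 0.11 around -0.01 and for Pmepa1 -0.11 to 0.44 around 0.16. Tgfbr1 was the gene with the widest spread over weeks. At week 1 it was 7.34, 6.47 and 6.22 in DP libraries, against 7.35, 7.37 and 7.58 in SP libraries (-0.76, adjusted p = 0.08; 17.4% of all genes called), and without DP library 1 of that week it passed (-1.09, adjusted p = 0.0148). At week 2 it was 7.60, 7.90, 7.64 and 7.69 in DP libraries, against 6.76, 7.49 and 6.89 in SP libraries (0.66, adjusted p = 0.726), at week 4 it was 8.27, 7.93 and 7.46 against 7.38 and 6.78 (0.81, adjusted p = 0.315), and at week 6 the difference was 0.46 (adjusted p = 0.852). From week 2 on every DP library thus lay above every SP library of its week, and at week 1 every DP library lay below. Over weeks 2, 4 and 6 the difference was 0.64 ± 0.17 (adjusted p = 0.0899, with 0.417% of all genes called), and a fit that left the week 1 libraries out altogether called it (adjusted p = 0.0402). Over all weeks the T-cell identity genes, all but Lat and Trac, were called lower in DP than SP cells, and no myeloid or epithelial marker was called. Cd8a was lower by -1.22 at week 1 (adjusted p = 6.04e-06) and by -0.31 over weeks 2, 4 and 6 (adjusted p = 0.0751). The part of these markers was not tested.

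**Figure D3:**
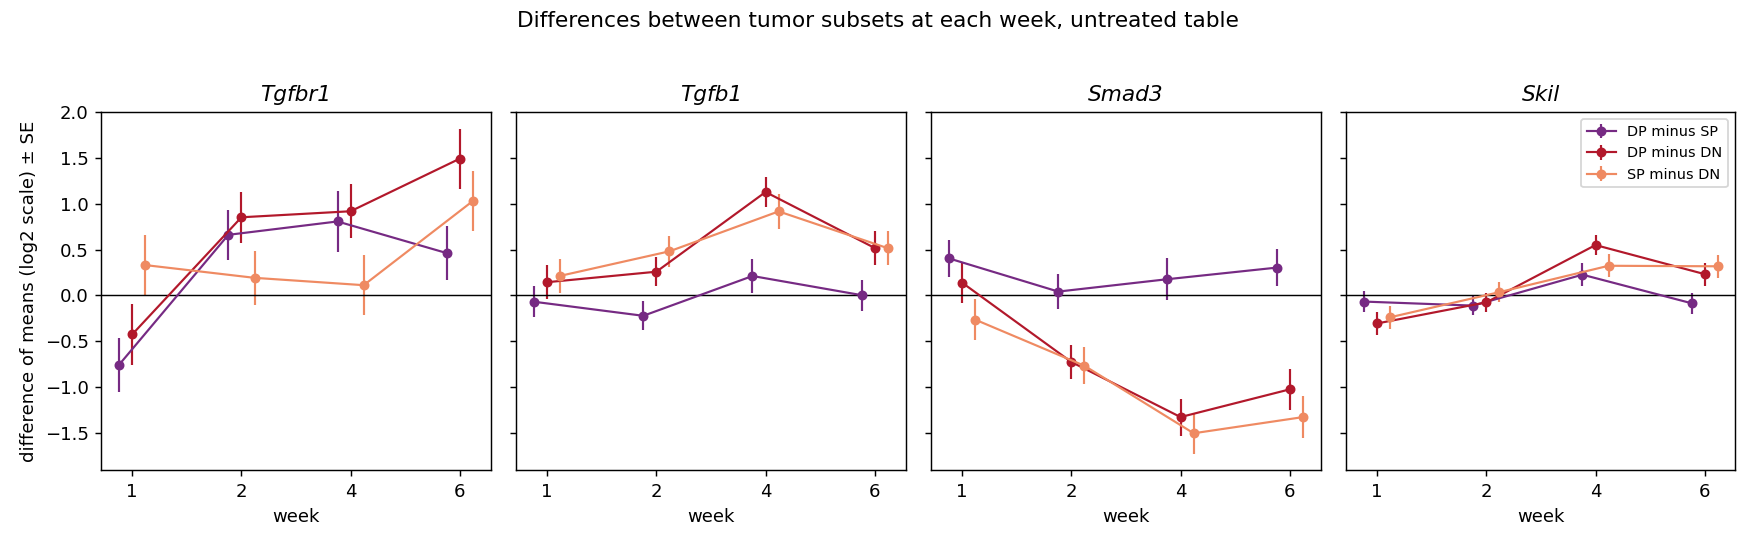
Difference of means on the log2 scale (± SE) between tumor subsets at weeks 1, 2, 4 and 6 for Tgfbr1, Tgfb1, Smad3 and Skil; 3 lines show DP minus SP, DP minus DN and SP minus DN. Smad3 lies near 0 at week 1 (0.14 and -0.27 against DN cells) and at -1.33 and -1.51 at week 4, and Tgfbr1 between DP and SP cells lies at -0.76 at week 1 and at 0.46 to 0.81 later.

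Whether these differences themselves changed after week 1 was tested directly, as the mean difference of weeks 2, 4 and 6 minus that of week 1, in 27 values for 9 members and 3 pairs of subsets, of which 5 passed. For DP against SP cells, 14.7% of all genes changed and 1 member did, Tgfbr1, by 1.40 ± 0.34 (adjusted p = 0.00948). It was 1.39 with the run term (adjusted p = 0.0121) and was called with each library left out in turn. For DP against DN cells, 25.8% of all genes changed and 3 members did: Tgfbr1 by 1.52 ± 0.37 (adjusted p = 0.00518), Smad3 by -1.17 ± 0.26 (adjusted p = 0.0022) and Skil by 0.54 ± 0.14 (adjusted p = 0.00787). Both week 1 DN libraries fall in the last code run, whose only other library is from week 4 DN cells. A run term is thus hard to tell apart from week 1 in DN cells, and a call lost with it does not settle the change. All 3 members lost their calls with the run term, at 1.17 (adjusted p = 0.248), -1.17 (adjusted p = 0.0664) and 0.47 (adjusted p = 0.219). Tgfbr1 and Skil also lost them without DN library 1 of week 1, at 1.08 (adjusted p = 0.104) and 0.44 (adjusted p = 0.0959). For SP against DN cells, 6.53% of all genes changed, and Smad3 did by -0.94 ± 0.26 (adjusted p = 0.0345), a call lost with the run term (-0.92, adjusted p = 0.513) and without either DN library or SP library 2 of week 1 (adjusted p up to 0.184). Between DP and DN cells all 4 epithelial markers and 2 of 9 myeloid markers fell after week 1 by the same test, and 7 of 13 T-cell identity genes rose. Between DP and SP cells 6 of these 13 rose and no epithelial or myeloid marker passed. The part of these markers in the members' changes was not tested.

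Between week 6 and week 1, 3 members changed in DP cells, where 25% of all genes did. Tgfbr1 was 8.10, 7.99 and 8.40 in week 6 libraries, against 7.34, 6.47 and 6.22 in week 1 libraries (1.49 ± 0.30, adjusted p = 0.000919). Tgfb1 was 4.72, 4.69 and 4.79 at week 6, against 4.04, 4.21 and 4.18 at week 1 (0.59 ± 0.17, adjusted p = 0.0141). Smad3 was lower at week 6 by -0.85 ± 0.20 (adjusted p = 0.0041). None of the 3 genes overlapped between these weeks. In a fit of the compared groups alone Tgfbr1 kept its call, and Tgfb1 (adjusted p = 0.153) and Smad3 (adjusted p = 0.0883) missed the threshold. Within codes 5 to 42 the values were 1.37 (adjusted p = 0.0106), 0.56 (adjusted p = 0.0583) and -0.91 (adjusted p = 0.00853). In SP cells 2.72% of all genes were called and 1 member was, Smad3, at -0.75 ± 0.20 (adjusted p = 0.0489), which was lost with any 1 library left out (adjusted p up to 0.192); Tgfb1 in SP cells differed by 0.52 ± 0.17 (adjusted p = 0.10). In DN cells no member was called by limma, where 5.79% of all genes were, and 1 had an unadjusted p below 0.05, Skil at -0.30. All 4 epithelial markers were lower and 9 of 13 T-cell identity genes higher in week 6 than week 1 DP cells, and the part of this in the members' changes was not tested.

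Tumors treated with ICB were analysed apart, since their table was normalised separately, and no level or difference was set against the untreated table by a test. Smad3 again was lower in DP and SP than DN cells, and Ldlrad4 and Pmepa1 were graded across the subsets. Between DP and DN cells 3 members changed, where 7.49% of all genes did. Ldlrad4 was 11.77, 11.77 and 11.75 in DP and 11.21, 11.19 and 11.25 in SP libraries, against 10.68 and 10.68 in DN libraries. The 3 subsets did not overlap, and the difference from DN cells was 1.08 ± 0.07 for DP (adjusted p = 0.00435) and 0.54 ± 0.07 for SP cells (adjusted p = 0.0275). Fam210a on the opposite strand differed by 0.24 between DP and DN cells (adjusted p = 0.127). Pmepa1 was 10.65, 10.66 and 10.70 in DP and 10.40, 10.29 and 10.40 in SP libraries, against 10.03 and 9.99 in DN libraries. The difference from DN cells was 0.66 ± 0.09 for DP (adjusted p = 0.0213) and 0.35 for SP cells, the second of which missed the threshold (adjusted p = 0.101). Smad3 was 9.91, 9.92 and 9.92 in DP and 9.72, 9.56 and 9.81 in SP libraries, against 10.59 and 10.54 in DN libraries. Its differences were -0.65 ± 0.11 (adjusted p = 0.0356) and -0.87 ± 0.11 (adjusted p = 0.0269). Between SP and DN cells these made 2 members, where 3.83% of all genes were called.

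Of the members that missed the threshold in these tumors, Tgfb1 was 11.27, 11.31 and 11.45 in DP and 11.45, 11.33 and 11.29 in SP libraries, against 11.02 and 10.98 in DN libraries. No DN library reached a DP or SP library, and the differences were 0.34 (95% interval 0.09 to 0.60, adjusted p = 0.108) and 0.36 (0.10 to 0.61, adjusted p = 0.128). Tgfbr1 was 9.01, 9.02 and 9.01 in DP libraries and 8.59, 8.47 and 8.66 in SP libraries, against 8.58 and 8.54 in DN libraries. DP cells stood above both other subsets, by 0.46 over DN (adjusted p = 0.0973) and 0.44 over SP cells (adjusted p = 0.283). Smad7 differed from DN cells by -0.58 in DP and -0.65 in SP cells (adjusted p = 0.124 and 0.126), with the DN libraries at 13.20 and 13.05 above all others. Between DP and SP cells 0 members passed by limma, where 0.0372% of all genes did, and 4 had an unadjusted p below 0.05, led by Ldlrad4 at 0.54 ± 0.06 (adjusted p = 0.0947). A fit of these 2 groups alone called 1 member there, Ldlrad4, and a fit with ordinary degrees of freedom called 5.

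The ICB table has 3 limits. Its residuals hold only 2 independent directions, and without limma's trend and robust options no member passed in any of its comparisons. That fit called 14 of all 13458 genes between DP and DN cells and 0 between SP and DN cells. Smad3 between DP and DN cells missed the threshold without DN library 1 (adjusted p = 0.0665). Of 11 myeloid markers, 8 were higher in DP than DN cells, as were 2 of 5 stromal and endothelial markers and 3 of 5 of CD4 and regulatory T cells. No myeloid marker passed between SP and DN cells, and the centred myeloid mean was 0.68 to 1.07 in DP and -0.45 to 0.22 in SP libraries, against -1.08 to -1.07 in DN libraries. Between SP and DN cells 1 of 8 epithelial markers (Wfdc2, 2.45), 2 of 5 stromal and endothelial markers (Cdh5, 1.85, and Sparc, 2.24), 2 of 5 markers of CD4 and regulatory T cells (Il2ra and Ctla4), 1 of 4 of gamma-delta T and NK cells (Tcrg-C2) and 4 of 13 T-cell identity genes were higher. The centred epithelial mean was -0.07 to 0.07 in DP and 0.51 to 1.07 in SP libraries, against -1.34 to -1.18 in DN libraries. The part of these markers was not tested.

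**Figure D4:**
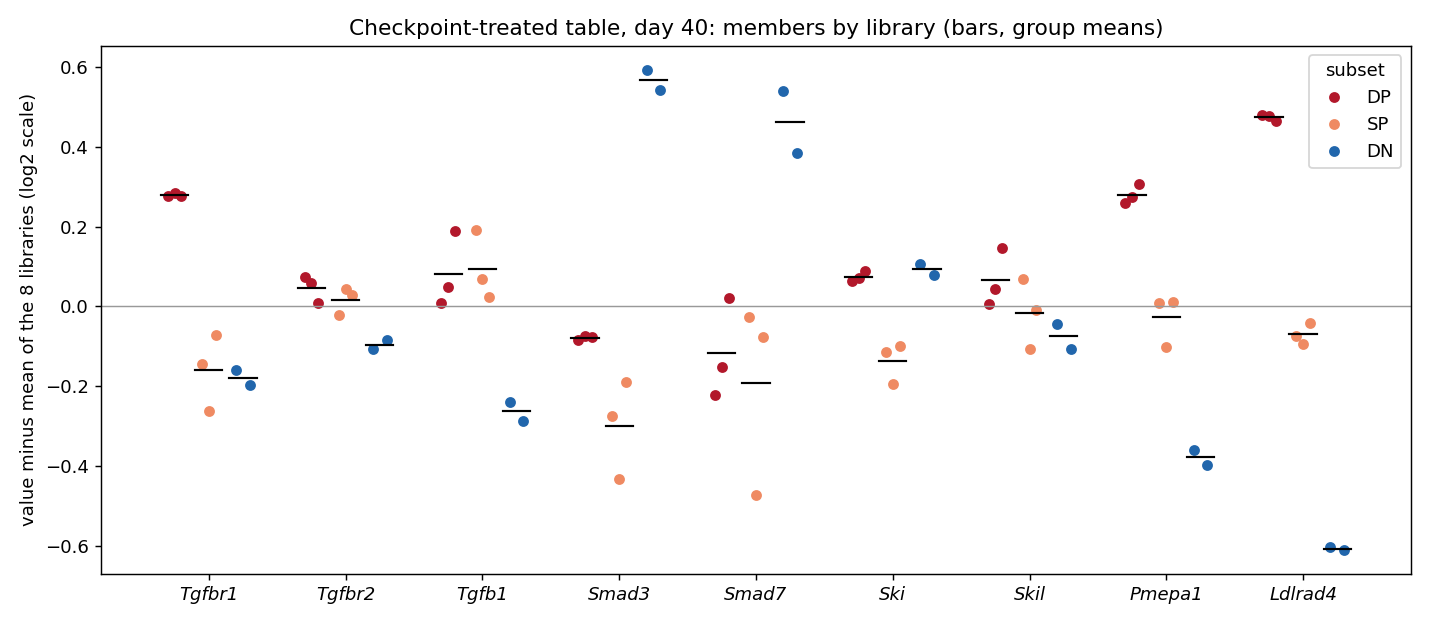
Values of the 9 members in the 8 libraries of ICB-treated tumors at day 40, each minus the gene's mean over these libraries (log2 scale), with DP, SP and DN libraries as points and group means as bars. Ldlrad4 and Pmepa1 step down over DP, SP and DN, and Smad3 and Smad7 are highest in DN cells.

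The order of group means in the untreated table summarises each member. For Tgfbr1 the highest mean was 8.16 ± 0.21 (SD, n = 3) in week 6 DP cells and the lowest 6.67 ± 0.09 (n = 2) in week 6 DN cells, and every neighbour in between overlapped. For Tgfb1 the highest was 5.02 ± 0.20 (n = 3) in week 4 DP cells, and the 3 spleen groups came last, at 3.57 ± 0.28 in CM, 3.54 ± 0.14 in EM and 3.37 ± 0.21 in naive cells, all overlapping. For Smad3 the tumor means ran from 4.97 ± 0.03 (n = 2) in week 6 DN cells down to 3.35 ± 0.10 (n = 2) in week 4 SP cells, below the 5.17 ± 0.17 of EM cells. Over the 12 tumor group means the correlation of Tgfb1 and Smad3 was -0.91, and over all 15 groups it was -0.57. Skil and Pmepa1 correlated at 0.91 over the 15 groups and at 0.23 over the 12 tumor groups. These are descriptions over groups that share libraries' preparation and, in part, code runs. Tgfbr2 was highest in naive cells, at 8.43 ± 0.02, which no other group overlapped, and lowest in CM cells, at 7.63 ± 0.08, beside 7.64 ± 0.03 in week 4 DN cells. Smad7 ran from 3.98 ± 0.23 in naive to 2.83 ± 0.07 in EM cells, and Ski from 7.53 ± 0.17 in week 4 DP to 6.83 ± 0.06 in EM cells.

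The genes whose 15 group means correlated best with each member were taken from all genes of the untreated table. For Tgfb1 they were Adam8, a membrane protease (r = 0.978), and Nfkb2, a subunit of NF-kappaB (r = 0.966). For Pmepa1 and for Skil the first gene was the same, Spsb1, an adaptor of a ubiquitin ligase (r = 0.96 and 0.907). For Ski they were Fos (r = 0.835) and Nfkbiz (r = 0.832), both fast-responding transcription regulators. For Tgfbr1 they were Mef2a (r = 0.832) and the transferrin receptor Tfrc (r = 0.81), for Tgfbr2 Szrd1 (r = 0.9) and Ccdc85b (r = 0.874), and for Smad7 Cyth2 (r = 0.869) and Sh3d21 (r = 0.832). For Smad3 they were AC123702.1 (r = 0.922) and Fgf13 (r = 0.92), and for Ldlrad4 the chemokine Ccl1 (r = 0.875) and Phf11d (r = 0.833).

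The rest of the pathway was described with 4 lists. Over all genes 13.8% were called higher and 16% lower in DP than EM cells, 8.81% higher and 10.7% lower in DP than DN cells, 11% higher and 8.32% lower in SP than DN cells, and 0.767% higher and 2.72% lower in DP than SP cells. In EM against naive cells the shares were 12.6% and 12%, and in the ICB table they were 4.47% and 3.02% for DP and 2.47% and 1.36% for SP against DN cells. The counts below are to be read against these shares. With the code run as a term, 4 genes of the lists were called between DP and DN cells, Itgae (3.36, adjusted p = 0.00572), Foxp3 (2.48, adjusted p = 0.0198), S1pr1 (-2.94, adjusted p = 0.00572) and the T-box factor Eomes (-1.69, adjusted p = 0.0115), and between SP and DN cells S1pr1 alone was (-3.35, adjusted p = 0.00861). Of 15 genes of ligand activation and accessory receptors, 7 were measured in the untreated table. In DP against EM cells 3 of them were higher and 1 lower, with a list median of 0.84, against -0.03 over all genes. Ltbp3, which stores latent TGF-beta in the matrix, was 3.25 higher (adjusted p = 2.75e-05), and Lrrc32, which holds latent TGF-beta on the cell surface, was lower, at -2.44 (adjusted p = 0.000244). Against DN cells 2 of the 7 were higher in DP cells: Itgav, a subunit of the integrins that release active TGF-beta, by 0.62 (adjusted p = 0.0006), and Furin, the protease that cleaves the precursor, by 0.45 (adjusted p = 0.00237). The same 2 were higher in SP than DN cells, by 0.70 and 0.39. Without week 1 Itgav was 0.82 and Furin 0.58 higher in DP than DN cells (adjusted p = 7.72e-05 and 0.000427), and with the run term neither was called (adjusted p = 0.242 and 0.117). In ICB-treated tumors, with 12 measured, 3 were higher and 1 lower in DP than DN cells, among them the co-receptor Tgfbr3, 1.47 higher (adjusted p = 0.00306), and Itgb8, another integrin subunit, lower, at -2.18 (adjusted p = 0.0391).

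Of 23 signalling genes 22 were measured. In DP against EM cells 2 were higher and 5 lower, with a median of -0.15. Smad4, the common partner, was lower than in EM cells in every tumor subset, by -0.52 in DP (adjusted p = 9.02e-05), -0.49 in SP (adjusted p = 0.000222) and -0.31 in DN cells (adjusted p = 0.0136). Smad2, the other receptor-activated Smad of this pathway, was not called in DP against EM (-0.21) or DP against DN cells (0.12). Runx1 was lower in DP than EM cells (-0.62, adjusted p = 0.0036), and Zfyve9, an anchor that brings Smads to the receptor, was lower in DP than DN cells (-0.67, adjusted p = 0.00531). In that comparison 1 of the 22 was higher and 5 were lower, and without week 1 it was 1 and 6, with Zfyve9 at -1.02 (adjusted p = 0.0005). With the run term none of the 22 was called there (Zfyve9, adjusted p = 0.44), and Smad4 missed the threshold in DN against EM cells (-0.37, adjusted p = 0.189). None of the 22 was called in the ICB comparisons.

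Of 13 genes that TGF-beta is known to raise, 8 were measured, and these include Itgae, whose protein was used for the sort. In DP against EM cells 4 were higher and none lower, with a median of 1.11: E-cadherin, Cdh1, the ligand of CD103, was 3.77 higher (adjusted p = 6.57e-07) and Rgs16, a regulator of G-protein signals, 1.88 higher (adjusted p = 4.97e-05). The epithelial markers Krt8, Krt18, Krt19 and Epcam were also higher in this comparison, by 4.96, 4.07, 3.63 and 2.46. The part of epithelial RNA in the Cdh1 difference was not tested. Itgae itself was not called there (1.12, adjusted p = 0.059) and was lower in DN than EM cells, at -1.70 (adjusted p = 0.0113, or 0.107 with the run term). In DP against DN cells 3 were higher and none lower, including Foxp3, the regulatory T-cell factor (1.82, adjusted p = 7.96e-05), and in SP against DN cells 4 were. Without week 1 the counts were 5 and 4. In DP against SP cells 2 were higher and 1 lower, Itgae and Cdh1 (0.93, adjusted p = 0.0439) being the higher ones; Cdh1 missed the threshold with the run term (adjusted p = 0.0614) and without week 1 (adjusted p = 0.158). In ICB-treated tumors 4 of 10 measured were higher in DP than DN cells, with Itgae at 4.46 (adjusted p = 0.00477) and Foxp3 at 3.34 (adjusted p = 0.0197).

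Of 10 genes that TGF-beta is known to lower, 8 were measured. In DP against DN cells 1 was higher and 5 were lower, with a median of -0.75. S1pr1, the receptor by which T cells leave tissues, was lower, at -2.29 (adjusted p = 3.86e-06), and Gzmb, a cytotoxic granule protease, was the higher one, by 1.98 (adjusted p = 0.000233). Without week 1 they were at -2.86 and 2.53 (adjusted p = 1.54e-06 and 3.42e-05), 1 gene of the list was higher and 4 were lower, and with the run term Gzmb missed the threshold (2.65, adjusted p = 0.0531). In SP against DN cells 1 was higher and 3 lower, with S1pr1 at -2.68 and Klf2, a factor that maintains S1pr1, at -1.98, the second of which was not called with the run term (adjusted p = 0.0995). In DP against SP cells 3 were lower and none higher, among them Ifng, interferon-gamma (-1.05, adjusted p = 0.000908), and Prf1, perforin (-0.91, adjusted p = 0.0415), neither of which passed without week 1 (adjusted p = 0.082 and 0.0836). In EM against naive cells 4 were higher and none lower, led by Gzmb (6.21, adjusted p = 2.27e-07) and Tbx21, the T-bet gene (5.65, adjusted p = 2.66e-13). In ICB-treated tumors 1 was higher and 3 were lower in DP than DN cells, with S1pr1 at -5.18 (adjusted p = 0.00306) and Klf2 at -3.35 (adjusted p = 0.00423). In SP against DN cells of these tumors 3 were higher, Gzmb by 1.97 (adjusted p = 0.00795), Ifng by 0.79 (adjusted p = 0.0351) and Prf1 by 0.70 (adjusted p = 0.0294), and 2 were lower, S1pr1 and Klf2 (-4.53 and -3.09). The lists hold effector and trafficking genes that other signals also move, and their counts say nothing of TGF-beta itself.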

How the data were processed

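CD8+ T-cell subsets were profiled with QuantSeq 3' mRNA-Seq FWD, a 3' tag method, from 10 ng of RNA, as single-end reads of 75 bp, per the labels' protocols. The submitters' processing notes list HISAT2, HTSeq and mm10, with no versions; the normalisation is not given in the sources used here. The authors deposited 2 tables of normalised values, read here as log2 because they include negative numbers; the log base is an inference. Depth per library is unknown.

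Group means were fitted to each table with limma 3.58.1 (trend and robust options, statmod 1.5.0) in R 4.3.3, over all 43 or all 8 libraries, with p-values adjusted by Benjamini-Hochberg over all genes and weeks weighted equally. The residuals held 18 independent directions where the design allows 28 in the untreated table, and 2 where it allows 5 in the ICB table, so residual degrees of freedom were multiplied, and variances divided, by 0.6429 and 0.4. No filter on low values was used. The fit was tested on simulated data.

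The members and the gene lists were chosen with earlier results of these data known. The members are named in full; from each of the other lists the text names up to 2 called genes with the largest difference per comparison, plus Smad2, Smad4, Itgae, Cd69 and Fam210a. Eomes, the named marker genes of T cells and other cell types, and Ifng and Prf1 in the ICB table were named after their values were seen, and list counts with the code run term or without week 1 were added then too. Alternatives were other degrees of freedom, scalings, filters and moderation, fits of the compared groups alone, terms for replicate number or library code run, and fits without week 1 or without each library.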

Additional observations from a re-analysis of the deposited data

Results flagged for a closer look

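The difference between tumor subsets was itself compared between weeks, as the mean of weeks 2, 4 and 6 minus week 1, and 5 of 27 such values passed with limma; 2 differences under the same contrast thus differed by a direct test. Tgfbr1 changed by 1.40 between DP and SP cells (adjusted p = 0.00948) and by 1.52 between DP and DN cells (adjusted p = 0.00518). At week 1 each of the 3 DP libraries lay below every SP library for this receptor, and at each later week every DP library lay above. Smad3 changed by -1.17 between DP and DN cells (adjusted p = 0.0022) and by -0.94 between SP and DN cells (adjusted p = 0.0345), and Skil by 0.54 between DP and DN cells (adjusted p = 0.00787). The Tgfbr1 change between DP and SP cells was the 1 of these 5 that kept its call once the run of library codes entered the fit. No single library was set apart from its group in the 9 tests that could be made, all in the group of 4, week 2 DP cells.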

How the results depend on the processing

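Over 36 comparisons the members gave 87 calls, and none of these differences changed sign in any of the 9 alternatives or with any library left out. The filter on low values moved no count by over 1.5 times. Ordinary degrees of freedom, which take the tables as having lost no independent directions, gave more members: 4 in SP-DN, 3 in SP and 1 in DN week 6 minus week 1, 6 in EM-CM, 2 in DP-SP and 2 in DP-DN at week 1, 2 in each DN comparison at week 2, 4 in SP-DN at week 4, 4 in each DN comparison at week 6, 1 in DP-SP over weeks 2 to 6, 2, 6 and 2 in the changes after week 1 of DP-SP, DP-DN and SP-DN, and 5, 7 and 7 in the ICB comparisons DP-SP, DP-DN and SP-DN. The genes called over the whole table rose too, from 2044 to 3679 of 10560 in SP-DN and from 1626 to 3166 in EM-CM. In these ICB comparisons they rose from 5, 1008 and 515 to 3250, 6101 and 5217 of 13458. The code run as a term gave 0 in DP-DN and SP-DN, 2 in DN-EM, 2 in DN-naive, 1 in DP-DN at week 6, and 0 in the changes after week 1 of DP-DN and SP-DN. Of all 10560 genes it called 98, 62, 188, 1590, 155, 469 and 0 there, in the same order. Fitting only the groups compared gave 1 in DP and 0 in SP week 6 minus week 1, 1 in SP-DN at week 4, 3 at week 6, 0 in its change after week 1, and 1 and 6 in ICB DP-SP and DP-DN; it ended 14 calls of single members, with adjusted p from 0.0524 to 0.153. Over all genes this fit called 583, 559, 611, 653 and 412 of 10560, then 206 and 4315 of 13458 in the ICB table, in the same order. Without trend and robust options the counts were 0 in SP week 6 minus week 1 and 0 in both ICB comparisons with DN cells. Over all genes they were 270 of 10560 in the first, and 14 in DP-DN and 0 in SP-DN of 13458 in the ICB table. Quantile normalisation and median rescaling each gave 2 in the change of SP-DN after week 1, where they called 535 and 609 of all genes. Without week 1, DP-SP had 1 (Tgfbr1) and SP-DN had 4, where 136 and 2258 of all genes were called. The cause of these moves was not tested.

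Over all pairs, replicate numbers showed no pairing: 13 of 46 pairs of libraries with the same number deviated together (r above 0.1), against 26 of 98 with different numbers. Between DP and SP cells of untreated tumors, however, every same-number pair had a positive r. The values were 0.095, 0.126 and 0.372 at week 1 and 0.414, 0.08 and 0.0515 at week 2. They were 0.861 and 0.552 at week 4 and 0.0233, 0.00968 and 0.0282 at week 6. Different-number pairs of these cells went both ways, from -0.861 to 0.325. Some DP and SP libraries may thus be paired, which the main fit did not use. With the replicate number as a block, the counts were 1 in DP and 0 in SP week 6 minus week 1, 2 in SP-naive, 3 in DN-naive and 1 in ICB DP-SP. Over all genes they were 1082, 0, 3194 and 2288 of 10560 and 628 of 13458, in the same order. Under this block Ldlrad4 was not called in DP-EM (1.42, adjusted p = 0.0578), SP-EM, DN-EM, CM-naive or any tumor subset against naive cells (adjusted p up to 0.148), nor Ski in SP-EM and DN-EM (adjusted p = 0.0891 and 0.11), Smad7 in SP-naive and DN-naive (0.122 and 0.128), Skil in CM-naive and in SP-DN over weeks 2 to 6 (0.0614 and 0.0636), Tgfb1 in DP week 6 minus week 1 (0.127), or Smad3 in DP (-0.44, adjusted p = 0.35) and SP week 6 minus week 1 (-0.34, adjusted p = 0.888).

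Leaving out 1 library at a time gave 3 to 7 members in CM-naive, 3 to 7 in DN-EM, 7 to 8 in DP-EM, 6 to 8 in SP-EM, 2 to 5 in EM-CM, 3 to 5 against naive cells in each tumor subset, 2 to 3 in SP-DN, 0 in SP week 6 minus week 1, 4 to 5 and 0 to 2 in DP-DN at weeks 4 and 6, 1 to 3 in SP-DN at week 4, 0 to 1 in DP-SP at week 1 and over weeks 2 to 6, 2 to 3 in SP-DN over weeks 2 to 6, 1 to 3 and 0 to 2 in the changes of DP-DN and SP-DN after week 1, and 0 to 1, 2 to 4 and 2 to 3 in ICB DP-SP, DP-DN and SP-DN. Where a group was left with 1 library, it was assumed to vary like the others.

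The tables hold no counts, so counting error and detection limits are unknown, and the ICB table has the fewest independent directions.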
